A study of Mus musculus with 4 samples.

Results

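NF-κB is a family of dimeric transcription factors whose activity is set largely by inhibitors that hold the dimers out of the nucleus. The RNA of 10 of its genes was examined in CD69+DP thymocytes: the 5 subunits *Nfkb1*, *Nfkb2*, *Rel*, *Rela* and *Relb*, and 5 inhibitors, *Nfkbia*, *Nfkbib*, *Nfkbie*, *Nfkbiz* and *Tnfaip3*. These genes were chosen by symbol and not by their values, though with earlier results of these data known. All 10 were among the 24421 genes listed. CD69+DP thymocytes carry both CD4 and CD8 and have gained CD69, which marks cells that received a TCR signal. The cells were FACS-sorted as CD69+CD4+CD8+ from the thymus of 6-week-old C57BL/6 mice, with 2 samples per genotype. All mice carried *Foxa1* fl/fl and *Foxa2* fl/fl alleles. Control mice lacked Cre, and Foxa1/2cKO mice carried the CD4Cre transgene, which is driven from the *Cd4* promoter and acts in thymocytes from about the DP stage. No sample carried CD4Cre without the floxed alleles, so an effect of the transgene and one of the deletion cannot be told apart. Samples came from different mice, and the methods give 2 mice of each genotype per sort.

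In T cells, a TCR signal is carried through adaptors such as Bcl10 and Malt1 to the IκB kinase (IKK) complex. IKK marks the IκB proteins for destruction, and dimers of subunits such as Rela and the Nfkb1 product then enter the nucleus and bind κB sites in DNA. Genes that carry κB sites include the inhibitors *Nfkbia* and *Tnfaip3*, which is the basis of a negative feedback loop. A separate, non-canonical branch processes the *Nfkb2* precursor, whose product pairs with Relb. In the thymus NF-κB is known for its part in the survival of selected thymocytes and in the development of regulatory T cells. Much of this control acts on proteins and their place in the cell, which RNA levels do not measure.

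To show where the family could read its own activity, the promoter windows of the 10 genes were searched for the κB consensus on both strands. Windows of 250 bases before to 50 bases after a RefSeq start on GRCm38.p6 (mm10) were held for 7 of the 10 genes, 10 windows in all, and those of *Nfkb1*, *Relb* and *Nfkbiz* were not used here. Of these, 7 windows of 5 genes held at least 1 match, and 8.46% of 32851 mouse windows did. Matches that overlap each other were counted once in the stretches below, and the windows of 1 gene can share bases. The printed stretches at *Nfkb2* lie in annotated exons, apart from the one at 236 bases before a start, and those of *Nfkbie* and *Rel* lie outside exons. Each stretch is printed 5′ to 3′ on the strand of its gene, with the matched bases in capitals.

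*Nfkb2*, chr19:46304689-46304717, plus strand, match 39 bases before a start: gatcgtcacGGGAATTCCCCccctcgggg
*Nfkb2*, chr19:46304717-46304744, plus strand, match 11 bases before the same start: gggccgaaaGGGGCTTTCCcggctggag
*Nfkb2*, chr19:46305445-46305488, plus strand, match 236 bases before a start further along the gene: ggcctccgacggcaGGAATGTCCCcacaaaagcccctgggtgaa
*Nfkb2*, chr19:46305696-46305723, plus strand, match 10 bases after that start and within the window of the next one: ggtattttcGGGACTTTCCtaagcagca
*Nfkbia*, chr12:55492647-55492696, minus strand, match 29 bases before the start: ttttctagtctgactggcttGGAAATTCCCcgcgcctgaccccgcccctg
*Nfkbie*, chr17:45555574-45555623, plus strand, match 106 bases before the start: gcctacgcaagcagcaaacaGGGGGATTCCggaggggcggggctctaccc
*Rel*, chr11:23771031-23771081, minus strand, match 92 bases before the start: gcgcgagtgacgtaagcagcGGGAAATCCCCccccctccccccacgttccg
*Tnfaip3*, chr10:19015506-19015555, minus strand, match 125 bases before a start: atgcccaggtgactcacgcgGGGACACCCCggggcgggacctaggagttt
*Tnfaip3*, chr10:19015393-19015442, minus strand, match 12 bases before the same start: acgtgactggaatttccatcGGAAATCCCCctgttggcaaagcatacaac

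At least 2 matches in 1 window were found at *Nfkb2*, *Rel* and *Tnfaip3*, counting overlapping matches, and in 1.22% of all windows. The windows of *Rela* and *Nfkbib* held none of these letters. The forkhead motif, searched as TGTTTAC or TATTTAC on both strands, was in 0 of the 10 windows and in 6.54% of all windows. A match is a run of letters in the reference and was not tested for binding in these cells.

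Expression is given in FPKM, that is, fragments per kilobase scaled by a total for each sample, so levels of different genes can be set side by side. The steps between values gave whole reads for 100% of the 16069 genes above 0, allowing at most 0.05 of a read, and the 10 genes came within 6.5e-06 of a read. These are the smallest whole numbers that fit, and they sum to 10385698 to 14468402 reads per sample on listed genes. In Foxa1/2cKO 2 the sum, 11251994, was above the total by which its FPKM were divided, 11093927. In each of the other samples the sum was below that total. How the totals were set is not given in the sources used here. *Foxa1* and *Foxa2* had a listed value of 0 in control and Foxa1/2cKO alike, so they do not check the genotypes. Foxa1/2cKO 2 stood apart on the first principal component (65.2% of the variance), at 28.5 against -11.0 to -7.42 in the other 3 samples. The spread of log2 differences between the samples of a genotype was 0.405 (SD over 10776 genes) in Foxa1/2cKO and 0.198 in control. In both genotypes the sorted identity was present, with *Cd4* at 342 to 446 FPKM and *Cd8a* at 475 to 666 FPKM. Both were highest in Foxa1/2cKO 2, as were *Cd8b1* (974 FPKM) and *Cd69* (121 FPKM). *Cd3e* was at 333 FPKM in Foxa1/2cKO 1 and at 396 FPKM in each other sample, and *Rag1* was highest in Foxa1/2cKO 1 (449 FPKM).

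All 10 genes were detected in every sample, with 278 to 5340 reads each, and none passed the test of a difference between the genotypes. The levels ran from about 10 FPKM for *Rel* to over 100 FPKM for *Nfkbia*. By mean over the 4 samples the order was *Nfkbia*, *Nfkb1*, *Rela*, *Nfkb2*, *Tnfaip3*, *Relb*, *Nfkbie*, *Nfkbib*, *Nfkbiz* and *Rel*. Neighbours in this order whose ranges over samples did not overlap were *Nfkbia* and *Nfkb1*, *Nfkb1* and *Rela*, *Tnfaip3* and *Relb*, and *Nfkbiz* and *Rel*. The other neighbours overlapped. In such bulk samples, fewer cells of a type and less RNA per cell cannot be told apart.

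**Figure D1:**
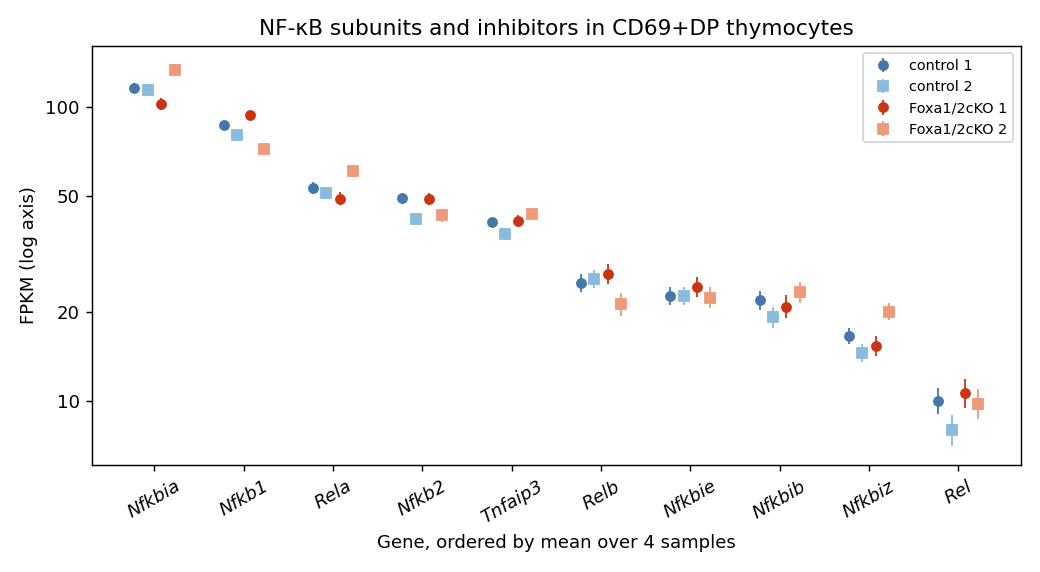
FPKM (log axis) of the 10 NF-κB genes in control 1, control 2, Foxa1/2cKO 1 and Foxa1/2cKO 2, ordered by the mean over 4 samples, with 95% Poisson intervals from the recovered reads as bars (counting error only). The samples of both genotypes intermingle at every gene except *Tnfaip3*, and at *Nfkbia* and *Nfkb1* the outermost points are both Foxa1/2cKO samples.

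*Nfkb1* (chromosome 3, 135584655 to 135691969, minus strand) encodes a precursor that is processed to the DNA-binding partner of Rela and Rel. Its level was 86.6 FPKM in control 1 and 80.7 in control 2, against 94.0 and 71.9 in Foxa1/2cKO replicates 1 and 2. The highest and the lowest sample were both Foxa1/2cKO, so the groups overlapped. Here and for the other genes, values of a genotype are in the order of replicates 1 and 2. The mean was 83.6 ± 4.22 FPKM (SD, n = 2) in control and 82.9 ± 15.7 in Foxa1/2cKO, for a log2 fold change of -0.02 (SE 0.15, limma adjusted p = 0.982).

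*Rela* (chromosome 19, 5637442 to 5648134, plus strand) encodes the main transactivating subunit of the canonical branch. It was at 53.1 and 51.0 FPKM in the controls, against 48.8 and 60.8 in Foxa1/2cKO replicates 1 and 2. Here too both extremes were Foxa1/2cKO samples, but in the opposite order to *Nfkb1*. The log2 fold change was 0.06 (SE 0.13, limma adjusted p = 0.930).

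*Rel* (chromosome 11, 23736847 to 23770969, minus strand) encodes c-Rel, a transactivating subunit used in lymphocytes and needed for regulatory T cells. It was the lowest of the 10, at 9.98 FPKM in control 1 and 7.92 in control 2, against 10.6 and 9.73 in Foxa1/2cKO replicates 1 and 2. Control 2 was below the other 3 samples, which lay close together. The mean was 8.95 ± 1.45 FPKM (SD, n = 2) in control and 10.2 ± 0.595 in Foxa1/2cKO, and the log2 fold change of 0.17 (SE 0.14, limma adjusted p = 0.863) was the highest of the 10. It rests on the fewest reads, and 279 reads in Foxa1/2cKO 2 give a counting interval of 8.62 to 10.9 FPKM, which holds the 9.98 of control 1.

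*Nfkb2* (chromosome 19, 46300994 to 46312400, plus strand) and *Relb* (chromosome 7, 19606217 to 19629438, minus strand) encode the pair of the non-canonical branch. *Nfkb2* was at 49.1 and 41.5 FPKM in control against 48.5 and 42.8 in Foxa1/2cKO. Sample 1 was the higher of each genotype, and the log2 fold change was 0.01 (SE 0.12, limma adjusted p = 0.989). *Relb* was at 25.2 and 26.0 FPKM in the controls, against 27.1 and 21.3 in Foxa1/2cKO replicates 1 and 2. Foxa1/2cKO 2 was below the other 3 samples, and the log2 fold change was -0.09 (SE 0.14, limma adjusted p = 0.906). Exons of *Nfkb2* in GENCODE M21 share 11.6% of their bases with AC114539.1 and 6.52% with *Psd* on the other strand. The counts used RefSeq annotation, and the strand setting of the read counting is not given in the sources used here. How far reads of these genes entered the *Nfkb2* level is therefore uncertain, and the shared bases do not give its size.

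*Nfkbia* (chromosome 12, 55489409 to 55492647, minus strand) encodes IκBα, which retains Rela-containing dimers in the cytoplasm and is made again after each round of signalling. It was the most abundant of the 10, at 117 FPKM in control 1 and 114 in control 2, against 103 and 134 in Foxa1/2cKO replicates 1 and 2. The controls lay close together between the Foxa1/2cKO samples. The mean was 115 ± 1.80 FPKM (SD, n = 2) in control and 118 ± 22.1 in Foxa1/2cKO, with a log2 fold change of 0.02 (SE 0.15, limma adjusted p = 0.984). Summed FPKM of 12 dissociation stress genes took the same order over the samples as *Nfkbia*, with 564 and 501 in the controls, against 456 and 649 in Foxa1/2cKO replicates 1 and 2. Most of the sum in Foxa1/2cKO 2 was *Egr1* and *Btg2*, at 196 and 226 FPKM there, against 167 and 140 in control 1. *Zfp36* and *Dusp1* were highest in control 1, at 106 and 15.6 FPKM. The genes of that list did not move as one, since 6 of the 9 tested had a lower mean in Foxa1/2cKO and *Junb* was lowest in Foxa1/2cKO 2. Their part in the *Nfkbia* level was not tested.

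*Nfkbib* (chromosome 7, 28758251 to 28766644, minus strand) encodes IκBβ, a second cytoplasmic inhibitor with slower turnover. It was at 22.0 and 19.2 FPKM in control against 20.9 and 23.4 in Foxa1/2cKO, with overlapping groups and a log2 fold change of 0.10 (SE 0.11, limma adjusted p = 0.874). Its exons share 14.5% of their bases with *Ccer2* and 1.94% with *Sirt2* on the other strand, so it carries the same uncertainty as *Nfkb2*. *Nfkbie* (chromosome 17, 45555700 to 45563169, plus strand) encodes IκBε. It was the steadiest of the 10, at 22.7 and 22.8 FPKM in control against 24.4 and 22.5 in Foxa1/2cKO. The groups overlapped, and the log2 fold change was 0.04 (SE 0.09, limma adjusted p = 0.938).

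*Nfkbiz* (chromosome 16, 55811375 to 55838954, minus strand) encodes IκBζ, an inducible nuclear member of the IκB family that can also act as a coactivator. It was at 16.7 and 14.5 FPKM in the controls, against 15.4 and 20.1 in Foxa1/2cKO replicates 1 and 2. Foxa1/2cKO 2 was above the other 3 samples, while Foxa1/2cKO 1 lay between the controls. The log2 fold change was 0.17 (SE 0.16, limma adjusted p = 0.868), and without Foxa1/2cKO 2 it was -0.01.

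*Tnfaip3* (chromosome 10, 19000910 to 19015410, minus strand) encodes a ubiquitin-editing enzyme that ends signalling to IKK. It was at 40.5 FPKM in control 1 and 36.9 in control 2, against 41.0 and 43.2 in Foxa1/2cKO replicates 1 and 2. Both Foxa1/2cKO samples were above both controls, and the counting intervals of the nearest pair overlapped, at 39.0 to 42.0 FPKM in control 1 and 39.2 to 42.8 in Foxa1/2cKO 1. The mean was 38.7 ± 2.55 FPKM (SD, n = 2) in control and 42.1 ± 1.61 in Foxa1/2cKO, for a log2 fold change of 0.12 (SE 0.09, limma adjusted p = 0.863), which did not pass the test. *Tnfaip3* was the only 1 of the 10 genes whose groups did not overlap, and 36.7% of all 10776 genes tested had groups that did not.

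To ask whether loss of Foxa1 and Foxa2 went with a change in the family, the 10 genes were counted in the fit over all genes tested. At an adjusted p under 0.05, 0 of the 10 were called with limma, and 0.00928% of all genes tested were called, a single gene. At an unadjusted p under 0.05 the count was again 0 of 10, against 4.55% of all genes tested. The limma-voom test on the recovered reads also called 0 of the 10. The mean was higher in Foxa1/2cKO for 8 of the 10 and lower for *Nfkb1* and *Relb*, with a median log2 fold change of 0.05, beside 51.3% higher and a median of 0.01 over all genes tested. The median size of the log2 fold change, sign aside, was 0.08 in the family and 0.11 over all genes tested. The mean of all 5 inhibitors was higher (median 0.10), as was that of 3 of 5 subunits (median 0.01). Without Foxa1/2cKO 2 the inhibitors counted 3 of 5, with a median of 0.03, and without Foxa1/2cKO 1 they counted 4 of 5, with a median of 0.18. The subunits counted 4 of 5 without Foxa1/2cKO 2 (median 0.10) or control 1 (0.09), and 2 of 5 without Foxa1/2cKO 1 (-0.08) or control 2 (-0.07), so the sign of their median turned.

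The 95% intervals give the range of changes that the 4 samples allow for each gene. That of *Nfkbie* was the narrowest, from -0.20 to 0.28 on the log2 scale, and that of *Nfkbiz* the widest, from -0.25 to 0.58. For *Nfkbia* it was -0.36 to 0.41, for *Nfkb1* -0.42 to 0.37 and for *Rela* -0.28 to 0.41. Over the 10 genes, folds between 0.733 and 1.50 lay inside at least 1 interval, and folds beyond these lay outside every interval. What could be seen differed from gene to gene. With Foxa1/2cKO 1 left out, *Nfkbia* (adjusted p = 0.0361) and *Relb* (0.0458) passed the limma test, as did 2559 of all genes tested, in a fit that assumes that the single remaining sample varies like the controls.

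**Figure D2:**
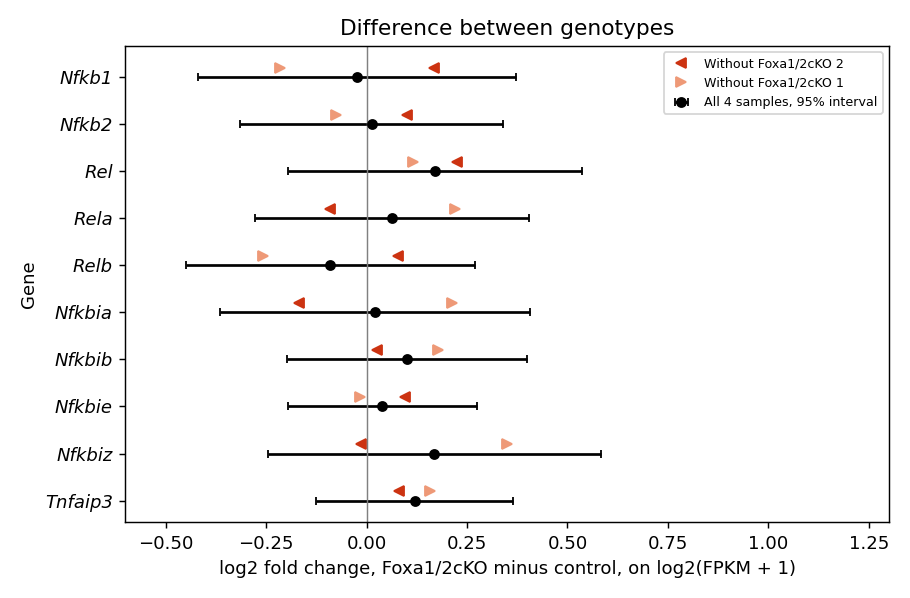
Difference between genotypes for each of the 10 genes, as the log2 fold change of Foxa1/2cKO against control on log2(FPKM + 1), with its 95% limma interval (black) and the value when 1 of the Foxa1/2cKO samples is left out (triangles). Every interval holds 0, and for 7 of the 10 genes the triangles lie on opposite sides of 0.

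For all of the 10 genes but *Rel* and *Tnfaip3*, the Foxa1/2cKO samples lay farther from each other than the genotype means did. From Foxa1/2cKO 1 to Foxa1/2cKO 2, *Nfkbia* differed by 0.38, *Nfkbiz* by 0.36 and *Rela* by 0.31 on log2(FPKM + 1), all higher in Foxa1/2cKO 2. *Nfkb1* differed by -0.38 and *Relb* by -0.33, both lower in Foxa1/2cKO 2. The family was split 5 against 5, with *Nfkb2*, *Nfkbie* and *Rel* also lower in Foxa1/2cKO 2 and *Tnfaip3* and *Nfkbib* also higher. Between the controls the widest differences were -0.30 for *Rel* and -0.24 for *Nfkb2*, and those of *Nfkbia* (-0.03) and *Nfkbie* (0.00) were among the narrowest.

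The counting intervals of the samples of a genotype lay apart for 5 genes in control and for 6 in Foxa1/2cKO, *Nfkb1*, *Nfkb2*, *Rela*, *Relb*, *Nfkbia* and *Nfkbiz*. The Foxa1/2cKO pair was the wider one for 6 of the 10, and for 76.5% of all genes tested. For *Nfkb2*, *Rel*, *Nfkbib* and *Tnfaip3* the control pair was the wider one. The direction of the genotype difference depended on which Foxa1/2cKO sample was kept for 7 genes, and for *Rel*, *Nfkbib* and *Tnfaip3* it was positive with either.

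**Figure D3:**
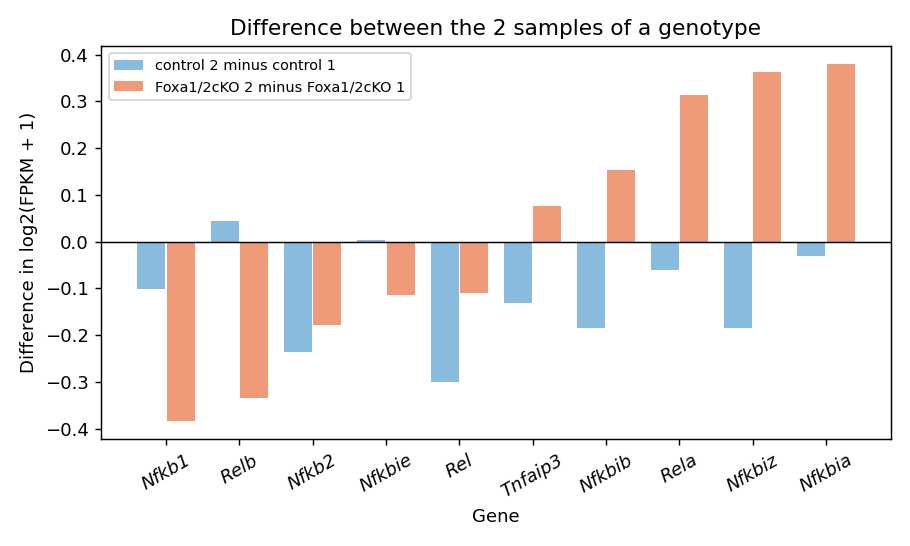
Difference in log2(FPKM + 1) between the 2 samples of each genotype (blue, control 2 minus control 1, and orange, Foxa1/2cKO 2 minus Foxa1/2cKO 1) for the 10 genes, in the order of the Foxa1/2cKO difference. The orange bars run from -0.38 for *Nfkb1* to 0.38 for *Nfkbia*, while the blue bars stay between -0.30 and 0.04.

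*Nfkb1*, *Nfkb2* and *Rel* were higher in sample 1 of each genotype, and so was the sum of B cell markers, though *Cd79b* among them was not in control (19.1 and 20.1 FPKM). Summed FPKM of 8 B cell markers was 85.7 in control 1 and 56.4 in control 2, against 115 and 60.1 in Foxa1/2cKO replicates 1 and 2. The B cell antigen gene *Ms4a1* was at 10.9, 6.02, 18.6 and 6.00 FPKM in the same order, and none of the B cell markers was at 0. Summed myeloid and dendritic markers came to 104 to 156 FPKM, lowest in control 2. Most of that sum was *Cst3*, at 82.6 and 70.1 FPKM in the controls, against 82.5 and 116 in Foxa1/2cKO replicates 1 and 2. Each of the other markers in that list was higher in sample 1 of each genotype, as the B cell sum was. The part of these cells in the NF-κB levels was not tested. Erythroid and thymic epithelial markers were low, with sums of at most 2.67 and 8.12 FPKM, and 4 of the 6 erythroid markers were at 0 in all samples.

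The make-up of the family within a sample does not depend on scaling between samples. *Nfkb1* made up 38.7% and 39.0% of the summed subunit FPKM in the controls, against 41.1% and 34.8% in Foxa1/2cKO replicates 1 and 2. *Rela* made up 23.7% and 24.6% in the controls, against 21.3% and 29.5% in Foxa1/2cKO replicates 1 and 2. These shares again placed the controls together and between the Foxa1/2cKO samples. *Nfkb2* held 20.1% to 21.9% and *Relb* 10.3% to 12.6%, with overlapping groups.

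*Rel* had the smallest share, 4.45% and 3.83% in control against 4.62% and 4.71% in Foxa1/2cKO. Its groups did not overlap, and the difference of 0.527 percentage points had an exact two-sided permutation p = 0.333, the smallest that 2 samples against 2 can give, so no share could pass 0.05. The differences were -0.869 points for *Nfkb1* (exact permutation p = 1), 1.21 for *Rela* (1), -0.842 for *Relb* (0.667) and -0.0262 for *Nfkb2* (1). Adjusted over the 5 shares by Benjamini-Hochberg, each exact permutation p was 1.

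**Figure D4:**
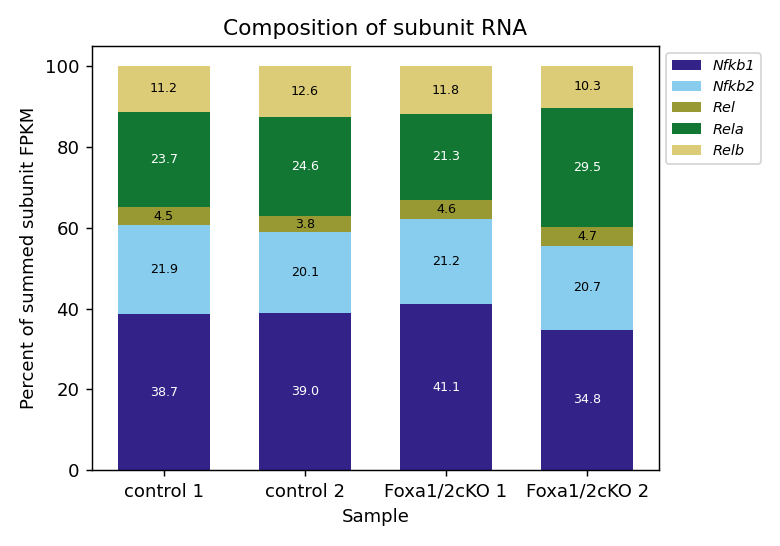
Share of each subunit in the summed FPKM of the 5 subunits, in percent, for each of the 4 samples (stacked bars, summing to 100). *Nfkb1* is the largest share in all 4 samples, and in Foxa1/2cKO 2 the *Rela* share is at its highest, 29.5%, and the *Nfkb1* share at its lowest, 34.8%.

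*Nfkb1* and *Nfkb2*, which encode precursors, were counted here as subunits only. The ratio of inhibitor to subunit RNA was the summed FPKM of *Nfkbia*, *Nfkbib* and *Nfkbie* over that of the 5 subunits. It was 0.720 in control 1 and 0.754 in control 2, against 0.646 and 0.870 in Foxa1/2cKO replicates 1 and 2. The lowest and the highest ratio were both Foxa1/2cKO. The mean was 0.737 ± 0.0238 (SD, n = 2) in control and 0.758 ± 0.159 in Foxa1/2cKO, a log2 difference of 0.02 (exact two-sided permutation p = 1). Both sums moved between the Foxa1/2cKO samples, with 229 and 206 FPKM of subunits and 148 and 180 FPKM of inhibitors in Foxa1/2cKO 1 and 2. In the controls the sums were 224 and 207 FPKM of subunits and 161 and 156 FPKM of inhibitors.

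Other genes of the pathway were read from 7 lists of 79 genes, of which 71 passed the filter of 1 FPKM in at least 2 samples. The file lists 78 of the 79, and *Tnip3*, *Ltbr*, *Tnfrsf11a*, *Tlr4*, *Il1r1*, *Bcl2a1a* and *Ier3* were below the filter. At an adjusted p under 0.05, 0 of the 71 were called by limma and by limma-voom. The mean was higher in Foxa1/2cKO for 41 and lower for 30, with a median log2 fold change of 0.02, and the groups did not overlap for 20 of the 71 (28.2%, against 36.7% of all genes tested). In each list the genes with the smallest unadjusted p are named below, and for these adjusted p from limma was 0.863 to 0.881.

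From the TCR to IKK, the means of 9 of 9 genes were higher in Foxa1/2cKO, with a median log2 fold change of 0.11. *Bcl10*, the adaptor that polymerizes after TCR signalling, was at 34.3 and 31.6 FPKM in control against 34.5 and 40.5 in Foxa1/2cKO (0.18). *Malt1*, a protease and scaffold, was at 12.7 and 12.8 FPKM in control against 13.5 and 14.0 in Foxa1/2cKO (0.11). With Foxa1/2cKO 2 left out, the mean was higher for 5 of the 9, with a median of 0.00.

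Of the 4 IKK genes, 3 had a higher mean, also without Foxa1/2cKO 2. *Ikbkg*, the regulatory subunit NEMO, was at 9.27 and 9.45 FPKM in control against 10.7 and 11.3 in Foxa1/2cKO (log2 fold change 0.21), with groups that did not overlap. *Cdc37*, a chaperone of IKK, was at 113 and 107 FPKM in control against 113 and 127 in Foxa1/2cKO (0.12). For the non-canonical kinase and its degradation, 4 of 5 means were higher, and 3 of 5 with either Foxa1/2cKO sample left out. *Birc2*, a ubiquitin ligase that keeps this kinase low, was at 26.5 and 27.8 FPKM in control against 33.0 and 29.9 in Foxa1/2cKO (0.20). *Traf2*, its adaptor, was at 24.7 FPKM in both controls and at 24.1 and 29.4 in Foxa1/2cKO (0.10), and without Foxa1/2cKO 2 the value was -0.03.

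Among the 12 genes tested for linear ubiquitin and deubiquitination, 11 had a higher mean, and 8 did with either Foxa1/2cKO sample left out. *Itch*, a ubiquitin ligase that works with the *Tnfaip3* product, was at 22.0 and 23.8 FPKM in control against 27.9 and 28.7 in Foxa1/2cKO. Its groups did not overlap, and its log2 fold change of 0.30 had a 95% interval of 0.06 to 0.53 and ranged from 0.24 to 0.35 when 1 sample was left out. It was the only 1 of the 71 with an unadjusted p under 0.05 in limma, at 0.0235, and with an adjusted p of 0.863 in limma it did not pass the test. *Tax1bp1*, an adaptor in the same complex, was at 76.1 and 79.5 FPKM in control against 87.8 and 89.3 in Foxa1/2cKO, for a log2 fold change of 0.18.

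In the list named other IκB-like and IκB-binding, all 8 genes tested had a lower mean in Foxa1/2cKO, with a median log2 fold change of -0.09. The list is broader than its name, since it also held *Nkrf* and *Nkap*. Without Foxa1/2cKO 2 the mean was lower for 6 of the 8, with a median of -0.15. *Nfkbid*, a nuclear IκB protein, was at 65.2 and 61.6 FPKM in control against 54.8 and 58.6 in Foxa1/2cKO (-0.16). *Nkiras2*, which binds IκB proteins, was at 16.4 and 15.7 FPKM in control against 12.9 and 15.1 in Foxa1/2cKO (-0.19). *Bcl3*, a nuclear IκB protein that binds the *Nfkb1* and *Nfkb2* products, was added after its values were seen. It was at 11.9 and 12.0 FPKM in the controls, against 12.8 and 4.37 in Foxa1/2cKO replicates 1 and 2, so its log2 fold change of -0.59 came from a single sample.

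Of the 9 receptors tested, 6 had a lower mean, and 3 of 9 without Foxa1/2cKO 2. *Tnfrsf9*, a costimulatory receptor, was at 22.2 and 22.7 FPKM in the controls, against 22.0 and 8.56 in Foxa1/2cKO replicates 1 and 2. Its log2 fold change of -0.66 became -0.03 without Foxa1/2cKO 2. *Cd28*, the costimulatory receptor that acts with the TCR, was at 170 and 157 FPKM in the controls, against 164 and 247 in Foxa1/2cKO replicates 1 and 2, a log2 fold change of 0.30 that became 0.00.

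The 24 targets tested were divided between 11 with a higher and 13 with a lower mean, with a median log2 fold change of -0.02. Without Foxa1/2cKO 1 the mean was higher for 8 of the 24 (median -0.23), without control 2 for 7 (-0.09), and without Foxa1/2cKO 2 or control 1 for 13 (0.03 and 0.04). *Junb*, a subunit of AP-1, was at 61.2 and 59.9 FPKM in control against 54.7 and 51.3 in Foxa1/2cKO (-0.19). *Il2ra*, the IL-2 receptor alpha chain, was at 6.65 and 7.25 FPKM in the controls, against 6.34 and 3.34 in Foxa1/2cKO replicates 1 and 2. Its log2 fold change of -0.49 became -0.12 without Foxa1/2cKO 2.

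**Figure D5:**
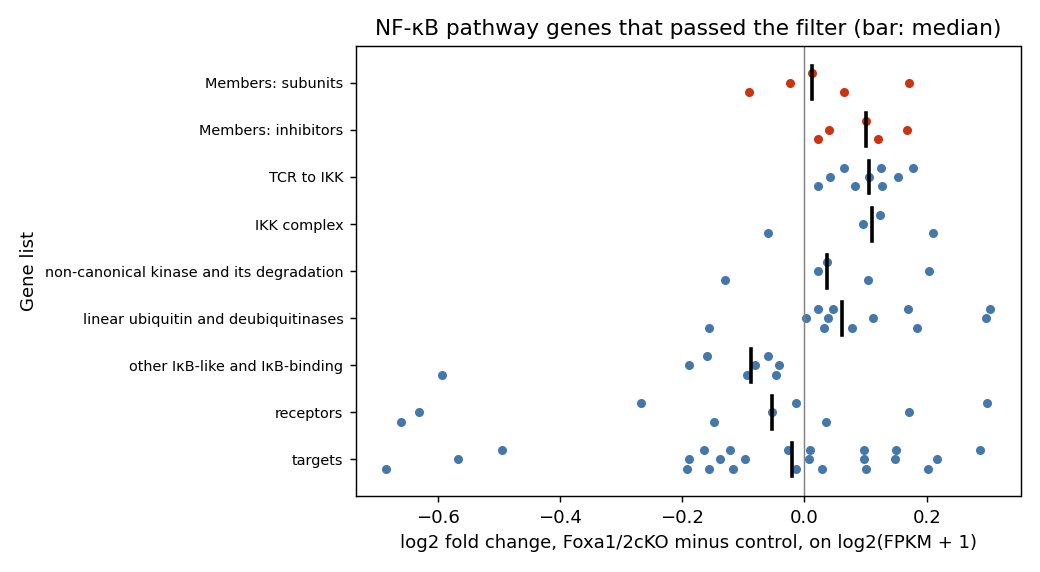
Log2 fold change of Foxa1/2cKO against control on log2(FPKM + 1) for the subunits and inhibitors (red) and for 71 other pathway genes in 7 lists (blue), with the median of each list as a bar. The medians lie between -0.09 and 0.11, and the points farthest left are among targets, receptors and other IκB-like genes.

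The genes whose levels over the 4 samples were most like those of *Nfkb1* and *Nfkbia* were sought among 6553 genes with a mean of at least 10 FPKM outside the lists. Likeness was the sum of squared differences of log2(FPKM + 1), each profile centred on its mean. Nearest to *Nfkb1* were *Ppm1m* (0.000496), *Mthfd1l* (0.000587) and *Mov10* (0.000723). *Ppm1m* ran from 9.58 FPKM in Foxa1/2cKO 2 to 12.9 in Foxa1/2cKO 1, with the controls at 11.6 and 10.7. Nearest to *Nfkbia* were *Def6* (0.000474), *Ets2* (0.000487) and *Fbrsl1* (0.000567). *Def6* was at 169 and 167 FPKM in the controls, against 147 and 192 in Foxa1/2cKO replicates 1 and 2, the order of *Nfkbia*. This likeness is a description over 4 samples.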

How the data were processed

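RNA from 4 samples of FACS-sorted CD69+DP thymocytes was sequenced on an Illumina NextSeq. Reads were aligned by the authors to mm10 (RefSeq annotation), and HTSeq gave counts per gene in its union mode; the submitters' processing notes also name TopHat, Picard and DESeq2. Each deposited value is an FPKM of 1 gene in 1 sample, and the step that made them is not given in the sources used here. Samples were grouped by the labelled genotype.

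The members and gene lists were chosen with earlier results of these data known. The genes named are the 10 members, the 2 genes of each pathway list with the smallest p, the 3 genes nearest in profile to *Nfkb1* and to *Nfkbia*, and *Foxa1* and *Foxa2*. *Bcl3*, *Cd3e*, *Cd4*, *Cd8a*, *Cd8b1*, *Cd69*, *Rag1*, *Egr1*, *Btg2*, *Zfp36*, *Dusp1*, *Cd79b*, *Ms4a1* and *Cst3* were named after their values were seen.

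Genotypes were compared with limma 3.58.1 in R 4.3.3 on log2(FPKM + 1), with a mean-variance trend, for the 10776 genes that reached 1 FPKM in 2 or more samples. Benjamini-Hochberg adjustment was over all of these, with a threshold of 0.05. The pseudocount makes fold changes of low genes understated. The pipeline was tested on simulated data. Since FPKM of a gene rise in whole steps, reads were recovered by dividing by the step, and 95.8% of 120 genes checked gave a whole length within 0.005 of a base. The totals by which FPKM were divided were 10796528 to 14968316. Poisson intervals (95%) cover counting error only. Single values were compared with exact two-sided permutation tests. Samples come from different mice, but whether each is 1 mouse or a pool is not given in the sources used here. Over all genes tested, same-numbered samples did not deviate together (r = -0.06 over 10776 genes). This does not settle whether they shared a sort or a preparation, which was not tested. Gene symbols were matched to RefSeq on GRCm38.p6, the assembly of mm10, and exon overlaps were read from GENCODE M21; the file held 27 symbols turned into dates, left as listed. Alternatives were a pseudocount of 0.1, other filters, upper-quartile scaling, no trend, a replicate block, other forms of the ratio, leaving out each sample and, added after the data were seen, limma-voom on recovered reads. Exon usage was not analysed here. Single values of 2 genes of the lists are not reported here. Python 3.11.15, pandas 2.3.3, scipy 1.17.1 and matplotlib 3.10.9 were used.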

Additional observations from a re-analysis of the deposited data

How the results depend on the processing

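The direction of each of the 10 genes was kept under the smaller pseudocount of 0.1, without a filter on low values, with a filter of 1 FPKM in all 4 samples, upper-quartile scaling, no trend, limma-voom and the replicate block, and none of these called any of the 10. With the replicate block, 0 of the 10 and 1 gene of all tested were called, 378 had an unadjusted p under 0.05, and the adjusted p of the 10 was 0.998. Over all genes, the 1 call became 0 with a pseudocount of 0.1, with no filter (802 at an unadjusted p under 0.05), with 1 FPKM in all 4 samples and with limma-voom (519 at an unadjusted p under 0.05).

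With upper-quartile scaling all 5 inhibitors kept a higher mean in Foxa1/2cKO, and 38 of the 71 other pathway genes did in place of 41. Leaving out 1 sample moved more. Calls over all genes ranged from 0 to 2559, calls among the 10 from 0 to 2 and calls among the other pathway genes from 0 to 24; the highest of each came without Foxa1/2cKO 1, and without Foxa1/2cKO 2 there were 19 calls over all genes. The log2 fold change ranged from -0.22 to 0.17 for *Nfkb1*, -0.11 to 0.13 for *Nfkb2*, 0.02 to 0.32 for *Rel*, -0.092 to 0.22 for *Rela*, -0.26 to 0.077 for *Relb*, -0.17 to 0.21 for *Nfkbia*, 0.01 to 0.19 for *Nfkbib*, -0.017 to 0.10 for *Nfkbie*, -0.014 to 0.35 for *Nfkbiz*, 0.05 to 0.19 for *Tnfaip3* and -0.031 to 0.24 for *Traf2*. The log2 difference of the inhibitor to subunit ratio ranged from -0.19 to 0.24, and it was 0.03 with geometric means and 0.05 with *Nfkbiz* and *Tnfaip3* added. The subunit shares ranged from -3.99 to 2.26 percentage points for *Nfkb1*, -0.959 to 0.906 for *Nfkb2*, 0.213 to 0.840 for *Rel*, -2.87 to 5.29 for *Rela* and -1.60 to -0.0813 for *Relb*. The cause was not tested.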
